A study of Rattus norvegicus with 18 samples.

Results

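Genes of arginine, nitric oxide and polyamine metabolism were followed in the proximal stump of the rat sciatic nerve over the hours after it was cut. The 7 genes described were Nos2, Nos3, Odc1, Sat1, Amd1, Ass1 and Oaz1, chosen by name, and a probe belonged to them if the array files gave it 1 of these gene names or an accession of that gene. This gave 9 probes of 41012 on the array, and 7 gene names of 35278. All 7 genes had at least 1 probe that could be tested, and 7 of the 9 probes lay well above background, as the scanner software judged it, on all 18 arrays. Of the other probes, that of Nos2 was not well above background on most arrays up to 3 h. That of Oaz1 lacked 1 array of 3 h, whose spot was left out as an outlier. Adult male Sprague-Dawley rats had a piece of the left sciatic nerve resected at mid-thigh under anaesthesia, and the segment proximal to the cut was taken at 0, 0.5, 1, 3, 6 or 9 h, with 3 arrays for each time-point. No transgene or drug other than the anaesthetic is described, the same operation is described for every group including that of 0 h, and neither the labels nor the methods say whether an array holds 1 rat or a pool, so that P-values measure the spread between arrays, which may be technical. The nerve segment holds several cell types, and fewer cells of a type cannot be told apart from less RNA per cell.

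Nitric oxide synthases turn arginine into nitric oxide and citrulline, and argininosuccinate synthase begins the path that rebuilds arginine from citrulline. Ornithine decarboxylase makes putrescine from ornithine, spermidine and spermine follow with propylamine groups that S-adenosylmethionine decarboxylase provides, and an acetyltransferase starts their breakdown and export. In injured tissue the inducible synthase is commonly used to describe states of macrophages, although other cells express it.

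Each probe is a strand of 60 bases, and its place on the rn4 build was taken from the array files. The probes of Nos2 and Nos3 are shown first because 2 related enzymes are read by them, and the capitals mark the 27 bases at which they match when laid side by side without gaps over 54 bases.

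Nos2: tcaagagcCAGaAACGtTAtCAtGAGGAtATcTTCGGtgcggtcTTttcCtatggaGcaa
Nos3: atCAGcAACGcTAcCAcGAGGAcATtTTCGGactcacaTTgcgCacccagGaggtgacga

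The Nos2 probe lies on chr10:65070211-65072250 on the plus strand, a span of 2040 bases, so it crosses an intron. The Nos3 probe lies on chr4:6159286-6159345 on the minus strand in 1 piece. Each of these probes was printed at 10 spots of an array, and each of the other probes at 1. Binding of either transcript to the other probe was not tested. The probes of Sat1, Ass1 and Oaz1 cross an intron as well, and they are printed because they identify the transcript that was read.

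Sat1: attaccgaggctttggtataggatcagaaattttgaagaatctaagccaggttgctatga
Ass1: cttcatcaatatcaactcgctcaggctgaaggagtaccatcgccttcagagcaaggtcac
Oaz1: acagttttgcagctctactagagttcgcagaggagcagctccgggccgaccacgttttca

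The Sat1 probe spans chrX:61637354-61637732, and that of Ass1 chr3:10620727-10622079, both on the plus strand, and that of Oaz1 spans chr7:10395014-10395150 on the minus strand. Odc1 and Amd1 had 2 probes each, at chr6:41315531-41315590 and chr6:41313685-41313744 for Odc1, and at chr20:44452568-44452627 and chr20:44453854-44453913 for Amd1. The probe with the higher mean signal, named here first, is called the first probe of the gene.

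Values are log2 of the scanner's processed signal relative to the 75th percentile of the same array, so that 0 is a fairly bright probe, and levels are not compared between probes. The share of spots well above background lay between 65.9% and 73.1% on the arrays of 0.5 h and between 73.4% and 93.5% on those of 6 h, and no spot was saturated. Arrays of 1 time-point correlated at 0.958 to 0.993. The arrays were scanned on 3 days, the first for 0 and 0.5 h, the second for 1, 3 and 6 h and 2 of the 9 h arrays, and the third for the remaining array, so that scan day and time cannot be told apart when a later time-point is set against 0 h. For this reason the contrasts of 3 and 6 h with 1 h, which lie within the second day, are given too. Each slide held arrays of 1 time-point only, so that slide and time cannot be told apart in any contrast, also within 1 scan day. The neutrophil, endothelium and other markers are lists of genes known from those cells. Markers of skeletal muscle differed widely between arrays of 1 time-point, with a summed signal of 66.9 to 1225 over 7 genes at 0 h, and of 0.93 to 296.9 at 6 h.

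Across the 6 time-points 6 of the 7 genes changed and Oaz1 did not pass the test, where a call means P under 0.01, and under 0.05 once adjusted by Benjamini-Hochberg, in limma's moderated F-test for at least 1 probe. Of all gene names tested 36.3% passed. Against 0 h none of the 7 genes was called by limma at 0.5 h or at 1 h, where 6.61% and 6.09% of all gene names were called, although 3 and 2 of them had an unadjusted P-value under 0.05. At 3 h 5 genes were higher and none lower (Nos2, Nos3, Odc1, Sat1 and Ass1), beside 7.7% of all gene names higher, 7.07% lower and 14.8% called, and without 3 h replicate 2 the count called there was 3. At 6 h 5 were higher and none lower, with Amd1 in the place of Sat1, beside 13.1% higher, 13.5% lower and 26.4% called. At 9 h 4 were higher and Sat1 was lower, beside 17%, 15.9% and 32.7% of all gene names. Nos2 is counted here although its probe entered the test only through 6 and 9 h, where it is high, and with probes above background on all 18 arrays, which leaves out Nos2 and Oaz1, 4 genes were called at each of 3, 6 and 9 h and 5 over the time-points. The median change of the 7 genes was 0.0095, 0.16, 0.62, 0.33 and 0.25 on the log2 scale at 0.5, 1, 3, 6 and 9 h, while that of all gene names lay between 0.00 and 0.02. The 3 arrays lay wholly above or below those of 0 h for 5, 1, 7, 7 and 7 of the 9 probes in turn, beside 32.7%, 29.9%, 38.2%, 45.9% and 53.1% of all probes. Nos2 is counted here at every time-point, and alone at 1 h. None of its arrays of 0, 0.5 and 1 h was well above background. Within the second scan day, 3 of the 7 genes were higher at 3 h than at 1 h (6.07% of all gene names higher, 11% called) and 5 were higher at 6 h than at 1 h (12.5% and 25.7%). Nos2, whose probe entered the test only through 6 and 9 h, is among these 5. Over the 11 arrays of that day alone 4 genes were called between 1, 3, 6 and 9 h (20.4%), namely Nos3, Sat1, Ass1 and Odc1 through its second probe.

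**Figure D1:**
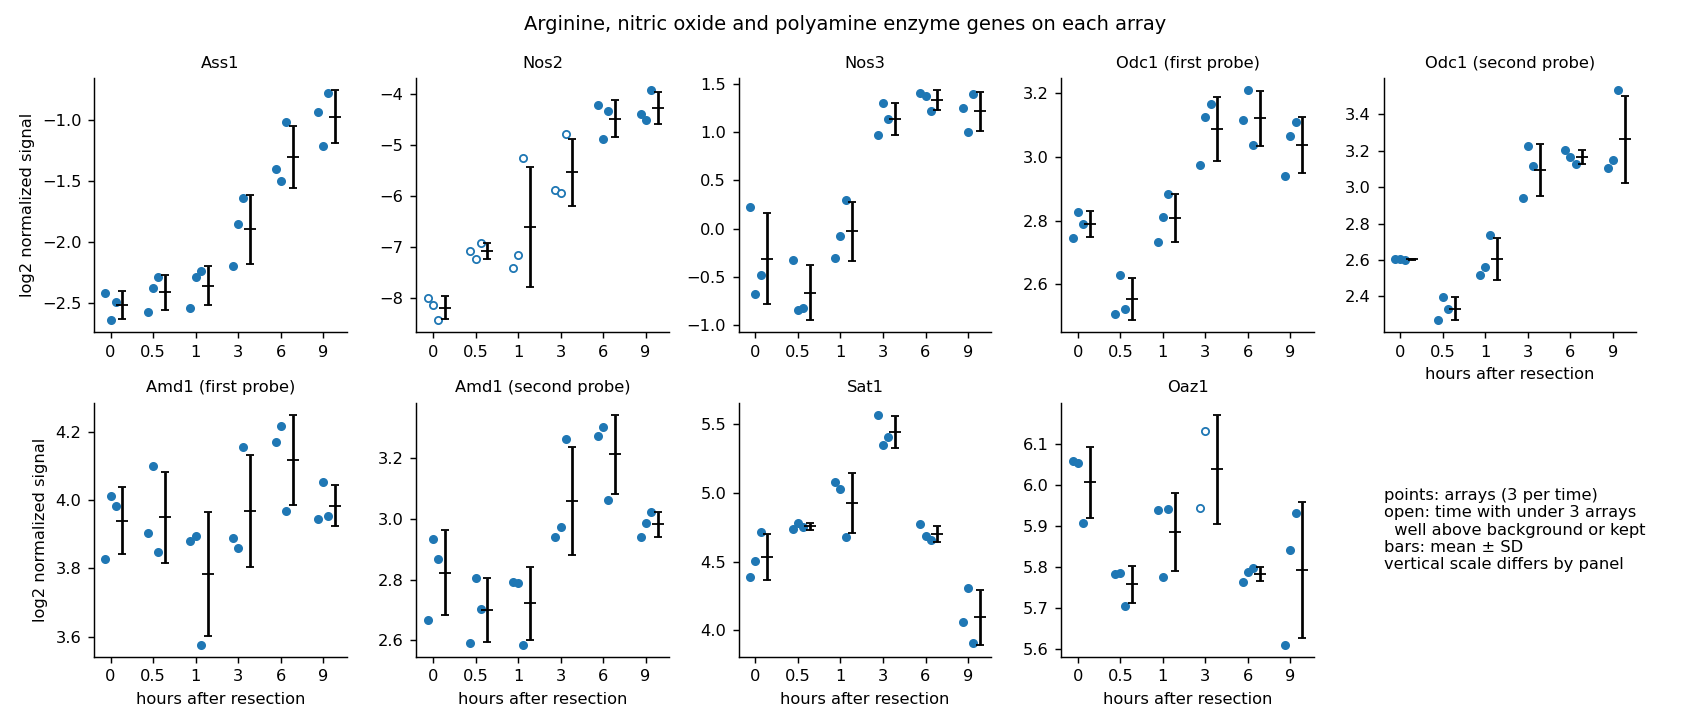
The log2 normalized signal of each of the 9 probes (vertical axis, own scale in each panel) is plotted against hours after resection, with 1 point for each array and bars for the mean and SD of a time-point; open points mark time-points at which fewer than 3 arrays were well above background or kept. Nos3 steps up between 1 and 3 h, Ass1 climbs up to 9 h, and Sat1 is highest at 3 h and lowest at 9 h.

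Argininosuccinate synthase, encoded by Ass1, was higher than at 0 h from 3 h on. The 3 arrays of 0 h read -2.42, -2.65 and -2.49, those of 0.5 h -2.58, -2.38 and -2.29, and those of 1 h -2.55, -2.29 and -2.24. The 3 h arrays read -2.20, -1.85 and -1.64, the 6 h arrays -1.41, -1.50 and -1.02 and the 9 h arrays -0.93, -1.21 and -0.78. From 3 h on every array lay above all arrays of 0 h, and up to 1 h the groups overlapped. The level was 1.54-fold that of 0 h at 3 h, 2.32-fold at 6 h and 2.92-fold at 9 h (log2 changes 0.62, 1.21 and 1.55, standard error 0.17, adjusted P 0.0243, 0.000179 and 1.95e-05). The call at 3 h was lost without 0 h replicate 2 or 3 (adjusted P 0.0929 and 0.055) and without 3 h replicate 2 or 3 (0.0819 and 0.0956). It was also lost with normexp background correction (0.86, adjusted P 0.106) and with the 6 arrays of the contrast alone (0.0711). The calls at 6 and 9 h held under all 29 alternatives. Within 1 scan day Ass1 was 1.05 higher at 6 h than at 1 h (adjusted P 0.000557), and the difference of 0.46 between 3 and 1 h was not called (0.0964). No neighbouring levels in its order (9, 6, 3, 1, 0.5 and 0 h) were called different.

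**Figure D2:**
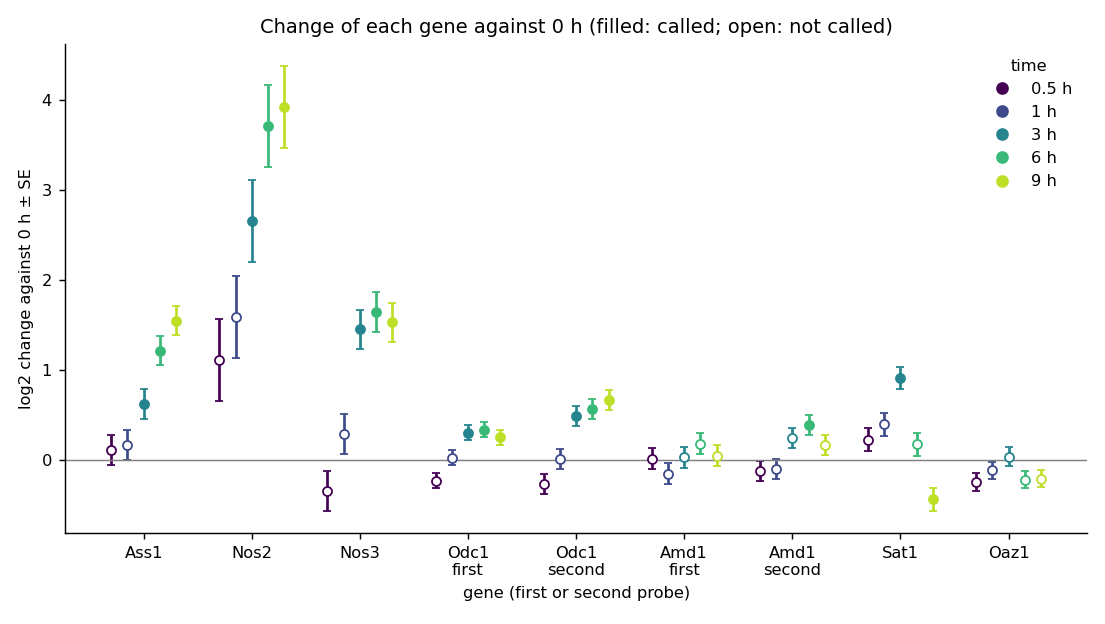
The log2 change of each probe against 0 h with its standard error is shown for 0.5, 1, 3, 6 and 9 h (colours), filled where limma called it and open where not. Nothing is filled at 0.5 or 1 h; Nos2 has the tallest fitted changes but was not above background at 0 h, and Sat1 alone is filled on both sides of 0.

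Nos2, the inducible nitric oxide synthase that immune and other cells make after inflammatory signals, came up from below background. None of the 3 arrays of 0, 0.5 or 1 h was well above background for its probe, 1 of 3 was at 3 h, and all were at 6 and 9 h. The 0 h arrays read -8.00, -8.14 and -8.45, the 0.5 h arrays -7.08, -7.25 and -6.92 and the 1 h arrays -7.43, -7.15 and -5.25, none of them well above background. The 3 h arrays read -5.90, -5.94 and -4.79, the 6 h arrays -4.22, -4.90 and -4.34 and the 9 h arrays -4.39, -4.51 and -3.92. Nos2 was called at 3, 6 and 9 h (adjusted P 0.00173, 7.62e-05 and 3.59e-05), but its probe passed the filter on dim probes only through 6 and 9 h, so that its calls follow in part from that choice, and at 3 h most of the arrays compared were below background. Since 0 h gives a limit and not a level, the signal was at least 4.07-fold higher at 6 h and at least 4.70-fold at 9 h, setting each array of 0 h at the dimmest signal that was well above background there. Against 1 h it was at least 1.999-fold higher at 6 h (adjusted P 0.00404), within 1 scan day. It was called at 0.5 h without 1 h replicate 3 (adjusted P 0.0351), and at 1 h when replicate 1 of that time-point or 3 h replicate 3 was left out (0.0385 and 0.0465). With normexp background correction none of the calls was kept (changes of 1.61, 0.75 and 0.84, adjusted P 0.163, 0.73 and 0.58). At 6 and 9 h these log2 changes are smaller than the bounds against 0 h, which thus belong to the scaling used here. The share of all spots above background was 65.9% to 76.9% on single arrays up to 1 h and 73.4% to 93.5% at 6 h, and its part in this result was not tested. As a measure beside it, Nos1, the neuronal synthase, whose probe was also printed at 10 spots, was above background on 1 of 3 arrays of 6 h and on no other array, and was not tested.

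Nos3, known as the synthase of vascular endothelium, stepped up between 1 and 3 h. The 0 h arrays read 0.22, -0.68 and -0.48, the 0.5 h arrays -0.33, -0.84 and -0.82 and the 1 h arrays -0.31, -0.07 and 0.30. The 3 h arrays read 0.97, 1.31 and 1.14, the 6 h arrays 1.41, 1.38 and 1.22 and the 9 h arrays 1.25, 1.00 and 1.39. Every array from 3 h on lay above every array before it. Nos3 was 2.73-fold higher at 3 h, 3.13-fold at 6 h and 2.88-fold at 9 h than at 0 h (log2 changes 1.45, 1.65 and 1.53, standard error 0.22, adjusted P 0.000741, 0.000159 and 0.0002), and all 3 calls held under all 29 alternatives. Between 1 and 3 h it rose by 1.16 (adjusted P 0.00475), within 1 scan day, and this was the sole pair of neighbouring levels called in its order. Of 8 markers of endothelium, against 0 h, none was higher and 1, 2 and 3 were lower at 3, 6 and 9 h, whereas against 1 h the test called 3 of them at 3 h (1 upward) and 4 at 6 h (1 upward). Their summed signal went from 55.1 to 59.8 at 0 h to 48.7 to 56.6 at 3 h and 40.1 to 41.4 at 9 h. All 8 were above background throughout 0 h, and Pecam1, which encodes an adhesion protein of endothelium, differed by 0.08 at 3 h and -0.09 at 9 h, with no call.

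Odc1 encodes ornithine decarboxylase, a short-lived enzyme that sets the entry into polyamine synthesis. On its second probe the 0 h arrays read 2.61, 2.61 and 2.60, the 0.5 h arrays 2.27, 2.40 and 2.33 and the 1 h arrays 2.52, 2.56 and 2.74. By 3 h the arrays read 2.94, 3.23 and 3.12, the 6 h arrays 3.21, 3.17 and 3.13 and the 9 h arrays 3.11, 3.15 and 3.53. At 0.5 h the probes read lower than at 0 h, with changes of -0.24 and -0.27, no overlap with 0 h but no call (adjusted P 0.112 and 0.171), and both were called at 3, 6 and 9 h. The second probe was 1.40-fold, 1.48-fold and 1.58-fold higher (changes of 0.49, 0.56 and 0.66, standard error 0.11, adjusted P 0.0103, 0.00235 and 0.000615). The first probe showed changes of 0.30, 0.33 and 0.25 (standard error 0.08, adjusted P 0.0272, 0.00899 and 0.0304). With a shift to the median in place of the 75th percentile the first probe was not called (changes of 0.21, 0.19 and 0.08), nor was it with normexp (0.07, 0.35 and 0.24, adjusted P 0.681, 0.191 and 0.396) or with the 6 arrays of the contrast alone (0.109, 0.0515 and 0.0958), and its call at 3 h was lost without any of the 3 arrays of 0 h and without 3 h replicate 2 or 3 (adjusted P 0.0563 to 0.096). Its call at 9 h was lost in 17 of 29 alternatives, 12 of which left out 1 array (any of 0 or 0.5 h, 1 h replicate 2, 3 h replicate 2, 6 h replicate 1 or 2, and 9 h replicate 2 or 3, adjusted P 0.0346 to 0.105). The second probe lost its call at 3 h without 3 h replicate 2 (adjusted P 0.0563) and with normexp (0.197).

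Amd1 encodes S-adenosylmethionine decarboxylase, which prepares the propylamine groups for spermidine and spermine. Its first probe stayed between 3.57 and 4.22 on all arrays, overlapped 0 h at every time-point and was not called (F-test adjusted P 0.275). Its second probe read 2.67, 2.93 and 2.87 at 0 h and 3.27, 3.30 and 3.06 at 6 h, a change of 0.39 (standard error 0.11, adjusted P 0.0192). The probes thus disagree on the call at 6 h, where the first had a change of 0.18 (adjusted P 0.278). It was called with quantile normalization (0.30, adjusted P 0.0327) and in the deposited matrix (0.30, 0.0298). The call of the second probe was lost without 0 h replicate 1 or 6 h replicates 1 or 2 (adjusted P 0.0759, 0.0634 and 0.0704) and with a shift to the median (0.187).

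Sat1 encodes the spermidine and spermine acetyltransferase, which marks polyamines for export or oxidation. The 0 h arrays read 4.39, 4.50 and 4.71, the 0.5 h arrays 4.74, 4.78 and 4.75 and the 1 h arrays 5.08, 5.03 and 4.68. The 3 h arrays read 5.57, 5.35 and 5.41, the 6 h arrays 4.77, 4.68 and 4.66 and the 9 h arrays 4.06, 4.31 and 3.91. All arrays of 3 h lay above and all arrays of 9 h below every other array. At 1 h Sat1 was called without replicate 3 of that time-point (0.52, adjusted P 0.0384), with array weights (0.47, 0.015), with quantile normalization (0.48, 0.0181) and in the deposited matrix (0.47, 0.0177). At 6 h its change was 0.17 (adjusted P 0.338), and it was called higher with quantile normalization (0.33, 0.0331) and in the matrix (0.33, 0.0293). Sat1 was 1.88-fold higher at 3 h (log2 change 0.91, standard error 0.13, adjusted P 0.000365) and fell by 0.44 below 0 h at 9 h (adjusted P 0.0158), and its order was 3, 1, 0.5, 6, 0 and 9 h, in which 3 h against 1 h (0.51, adjusted P 0.0198, within 1 scan day) and 0 h against 9 h were called different. The fall below 0 h at 9 h was not called without 0 h replicate 3 (-0.35, adjusted P 0.0722) or 9 h replicate 1 or 3 (-0.42 and -0.35, 0.0452 and 0.0746), in the quantile normalized values (-0.28, 0.0488), in the matrix (-0.29, 0.0428), or with the 6 arrays of the contrast alone (0.0724). With normexp neither call held (0.76 at 3 h, adjusted P 0.0614, and -0.32 at 9 h, 0.467).

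Oaz1 encodes ornithine decarboxylase antizyme, which binds the decarboxylase and sends it to the proteasome. It stayed between 5.61 and 6.13. One of the 3 spots at 3 h was marked as an outlier and left out, so that n = 2 there. Its changes were -0.25, -0.12, 0.03, -0.22 and -0.21 (standard error 0.10, and 0.11 at 3 h) with adjusted P-values of 0.15, 0.471, 0.875, 0.103 and 0.0994. With a shift to the median Oaz1 was called lower at 0.5, 6 and 9 h (-0.41, -0.36 and -0.38, adjusted P 0.047, 0.0311 and 0.019), and with array weights at 9 h (-0.35, 0.00378). Over all 35 pairs of neighbouring levels of the 7 genes, 3 were called, of Nos3 and Sat1 (5 without 1 h replicate 3), in contrasts in which 11% (3 and 1 h) and 32.7% (9 h and 0 h) of all gene names were called.

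The profiles most like those of the 5 genes whose first probe passed the F-test were looked up by Pearson correlation over the 18 arrays among 11323 named genes above background on all arrays. These values describe profiles that share their arrays, time-points and scaling, and they carry no test. Sat1 was most like Azin1 (0.94), which encodes the antizyme inhibitor and so also belongs to polyamine control, and next Usp53 (0.92). Nos3 was most like Krt7 (0.97) and Fosl1 (0.97), Ass1 like Slpi-ps1 (0.98) and Hk3 (0.98), and Odc1 like Imp3 (0.95) and Plekha3 (0.95). Nos2 was most like Aqp9 (0.95) and Cxcl3 (0.95), but its own values were below background on all arrays up to 1 h and on 2 of 3 at 3 h, so that this likeness rests mostly on values that are no levels. For Azin1 the 0 h arrays read 4.04, 4.03 and 4.13, the 0.5 h arrays 4.40, 4.16 and 4.22 and the 1 h arrays 4.59, 4.33 and 4.08. Its 3 h arrays read 4.81, 4.47 and 4.65, the 6 h arrays 4.27, 4.19 and 3.90 and the 9 h arrays 3.79, 3.92 and 3.59. Its change against 0 h was 0.58 at 3 h and -0.30 at 9 h (standard error 0.14), which is a description, since Azin1 was picked for its likeness to Sat1 on these arrays.

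**Figure D3:**
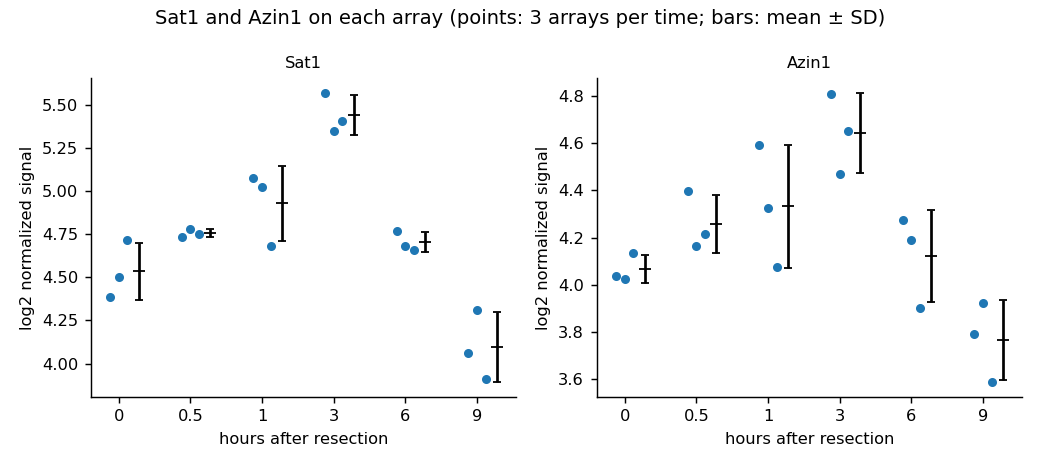
The log2 normalized signal of Sat1 and Azin1 is plotted against hours after resection, with 1 point for each array and bars for the mean and SD of 3 arrays. Both genes are highest at 3 h (means 5.44 and 4.64) and lowest at 9 h (4.09 and 3.77).

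Upstream sequence was at hand in RefSeq (GRCr8) for 6 of the 7 genes, Ass1, Nos3, Odc1, Oaz1, Amd1 and Sat1. The 250 bases before the start of Odc1 (chr6:46058415-46058664, plus strand) and Sat1 (chrX:44007839-44008088, plus strand) are printed, since these genes make and break polyamines and both were higher at 3 h, and the capitals mark TGACG on either strand, the core of the cyclic AMP response element.

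Odc1: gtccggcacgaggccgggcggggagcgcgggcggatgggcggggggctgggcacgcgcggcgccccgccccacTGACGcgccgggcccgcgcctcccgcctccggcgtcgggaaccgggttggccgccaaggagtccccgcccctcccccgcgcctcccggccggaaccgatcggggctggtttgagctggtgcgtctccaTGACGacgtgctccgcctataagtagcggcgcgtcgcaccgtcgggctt
Sat1: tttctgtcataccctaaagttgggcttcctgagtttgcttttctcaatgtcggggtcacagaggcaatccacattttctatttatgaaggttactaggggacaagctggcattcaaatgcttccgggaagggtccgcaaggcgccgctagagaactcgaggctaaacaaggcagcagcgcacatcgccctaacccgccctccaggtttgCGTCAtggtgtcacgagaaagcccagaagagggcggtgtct

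TGACG occurred 2 times before Odc1 and before Oaz1, 1 time before Sat1 and before Amd1, and not before Ass1 or Nos3, while 18.2% of all 33469 promoters hold it in a window of the same length on either strand. The full palindrome TGACGTCA, of which TGACG is a part, occurred in none of the 6 and in 1.59% of all. GGGCGG, the GC box, occurred 5 times before Odc1, 2 times before Sat1, 1 time each before Nos3, Oaz1 and Amd1 and not before Ass1, with 30.5% of all promoters holding it. CACGTG was found before Oaz1 (5.59% of all promoters), the NF-kappa-B motif before Oaz1 (16.4%), TATAAA before Ass1, Oaz1 and Amd1 (12.9%), and TGANTCA before none of the 6 (6.34%). GC content was 78% before Odc1 and 52.8% before Sat1. These are matches of letters and not sites.

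The rest of the pathway was described with 5 lists of 49 genes, 44 of them tested, of which 29 changed over the time-points beside 36.3% of all gene names. Against 0 h 2 genes of the lists were called at 0.5 h (Srm and Pde5a) and 3 at 1 h (Slc7a1, Pde5a and Pycr1), beside 6.61% and 6.09% of all gene names. The lists held 5 higher and 5 lower genes at 3 h, then 9 higher and 11 lower, and by 9 h 11 of each. The shares of all gene names called upward were 7.7%, 13.1% and 17% in turn, those called downward 7.07%, 13.5% and 15.9%, and the counts of each list and of the marker lists are to be read beside these shares.

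Among genes that supply arginine most calls were higher. Of 8 tested, 6 changed in the F-test (Slc7a1, Slc7a6, Asl, Slc7a2, Slc3a2 and Nags, with Cps1 not tested), and 2, 4 and 4 were higher and 0, 0 and 1 lower at 3, 6 and 9 h. Their median change was 0.37, 0.46 and 0.52. Slc7a1, the main carrier of arginine into cells, read -0.84, -0.66 and -0.66 on the 0 h arrays and 0.17, 0.52 and 0.63 on the 3 h arrays, and was 2.24-fold, 2.06-fold and 2.17-fold higher at 3, 6 and 9 h (adjusted P 4.82e-05, 6.06e-05 and 2.59e-05), under all 29 alternatives. Its second probe was called from 1 h on (change of 1.37 at 1 h, adjusted P 0.0226), where the first differed by -0.08. Asl, which completes the path from citrulline to arginine after Ass1, was higher by 0.58 at 6 h and by 0.82 at 9 h (adjusted P 0.0234 and 0.00277), and the first of these calls was lost without 0 h replicate 1 or 3 or 6 h replicate 3 (0.0574, 0.0632 and 0.0961). The same call was lost with normexp (0.57, adjusted P 0.074) and with a shift to the median (0.44, 0.0641). Slc7a2, another arginine carrier, was 0.73 higher at 3 h on its brightest probe (adjusted P 0.00584). A dimmer probe of it read -3.53, -5.61 and -5.61 at 6 h and was called there, with 1 of 3 arrays of 0 h above background, so that no fold is given, and 6 h replicate 1 stood above the other 2. Slc7a6 was not well above background at 0 h and was at least 1.80-fold higher at 6 h and 1.90-fold at 9 h (adjusted P 0.0036 and 0.00209), but these bounds belong to the scaling used here: at 6 and 9 h the log2 changes were 0.16 and 0.19 with normexp, 0.53 and 1.06 with quantile normalization and 0.42 and 1.01 in the deposited matrix, with no call. The probe of Slc7a6 and the dimmer probe of Slc7a2 entered the test only through 6 and 9 h, where they are high, so that their calls, which the counts of this list include, follow in part from that choice.

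Of 10 tested genes of nitric oxide synthesis and its regulators, 7 changed (Gch1, Ddah2, Nos1ap, Pts, Ddah1, Nosip and Qdpr), and Gch1 alone was higher at 3, 6 and 9 h, with 3, 5 and 4 lower. The median change was -0.12, -0.31 and -0.10. Gch1 encodes GTP cyclohydrolase, which sets the supply of the synthases' cofactor tetrahydrobiopterin. Its 0 h arrays read -1.14, -1.32 and -1.22, its 3 h arrays -0.08, 0.65 and 0.79, its 6 h arrays 0.54, 0.43 and 0.43 and its 9 h arrays 0.68, 0.20 and 0.63. It was 3.20-fold, 3.23-fold and 3.32-fold higher (adjusted P 9.19e-05, 4.7e-05 and 3.01e-05), under all 29 alternatives. Pts and Qdpr, which act after it in making and regenerating the cofactor, were also called lower at both 6 and 9 h, Pts by 0.34 and 0.30, calls of Pts that were lost without 0 h replicate 2 or 3 (adjusted P 0.0492 to 0.0714) and at 9 h also without 9 h replicate 1 or 3 (0.0584 and 0.0993). Ddah2, which breaks down the methylated arginines that inhibit the synthases, was 0.73 lower at 6 h and 0.81 lower at 9 h (adjusted P 9.75e-05 and 3.1e-05), and Ddah1 was 0.40 lower at 9 h on its first probe (0.0173) and not called on another (-0.15, 0.405). Nos1ap, a partner of the neuronal synthase, was called lower at 3 h (adjusted P 0.00178), where 1 of 3 arrays was above background, so that the size is not given, and with normexp it was 0.80 higher with no call (0.329).

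Among the targets of nitric oxide, subunits of soluble guanylate cyclase, its main receptor, were called lower. Gucy1a1 was called at 3, 6 and 9 h, Gucy1b1 at 3 h alone and Gucy1a2 at 6 h alone. Of 5 tested genes 4 changed (Gucy1a1, Gucy1b1, Gucy1a2 and Pde5a, with Prkg2 not tested), and 2 were lower and none higher at each of 3, 6 and 9 h. The median change was -0.32, -0.39 and -0.36. Gucy1a1 read 1.33, 1.71 and 1.80 on the 0 h arrays and 0.64, 0.83 and 0.16 on the 9 h arrays, and was lower by 0.90, 0.88 and 1.07 at 3, 6 and 9 h (adjusted P 0.00484, 0.00279 and 0.000589). Gucy1b1 was 1.06 lower at 3 h (adjusted P 0.000297) and Gucy1a2 0.62 lower at 6 h (0.00888), where its dimmer probe was not called. With normexp this call of Gucy1a2 was lost (-0.52, adjusted P 0.558). The probes of Pde5a, which breaks down cyclic GMP, disagreed, with the brightest 0.58 lower at 9 h (adjusted P 0.00415) and another 0.43 higher at 1 h (0.0289). The lower level of Gucy1a1 at 9 h stood beside lower summed signals of fibroblast and endothelium markers, whose part in this was not tested. Of 6 fibroblast markers 5 were lower at 9 h, with a sum of 1299 to 1387 at 0 h and 901.3 to 958.5 at 9 h. The endothelium sums are given above.

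Most other polyamine genes that were called were higher. Of 15 tested, 8 changed (Srm, Mat2a, Eif5a, Sms, Mtap, Sat2, Azin1 and Agmat), 2, 4 and 5 were higher and 0, 1 and 1 lower at 3, 6 and 9 h, and the median change was 0.13, 0.14 and 0.35. Paox and Dohh were not found by name. Srm, spermidine synthase, fell by 0.51 at 0.5 h (adjusted P 0.0284, within the first scan day, lost without any array of 0.5 h and without 0 h replicate 1 or 2, adjusted P 0.0525 to 0.119) and was higher by 0.46 at 6 h (0.0149, not called without 0 h replicate 1 or 3, 0.0466 and 0.064) and by 0.64 at 9 h (0.00155). Mat2a, which makes the S-adenosylmethionine that Amd1 uses, read -1.15, -1.19 and -1.33 at 0 h and -0.20, 0.05 and 0.05 at 3 h, a 2.29-fold difference (adjusted P 0.000225), and was 1.69-fold higher at 6 h (0.00304). Eif5a, the protein that carries a hypusine made from spermidine, was 0.50 and 0.86 higher at 6 and 9 h (0.0308 and 0.00104), and Sms, spermine synthase, 0.49 higher at 9 h (0.0163). The call of Eif5a at 6 h was lost without 0 h replicate 2 or 3 or 6 h replicate 1 or 3 (0.0652 to 0.104), and that of Sms without 0 h replicate 1 or 3 or 9 h replicate 3 (0.0432 to 0.0727). Sat2, a relative of Sat1, was lower at 6 and 9 h.

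Among genes of other uses of ornithine and arginine the calls at 6 and 9 h were lower, apart from Prodh at 9 h. Of 6 tested, 4 changed (Oat, Gamt, Pycr1 and Prodh), with 3 lower and none higher at 6 h and 3 lower and 1 higher at 9 h, and a median change of -0.31 and -0.47. Oat, which turns ornithine towards glutamate and proline, fell by 0.45 and 0.53 at 6 and 9 h (adjusted P 0.00124 and 0.0003), although its dimmer probe was not called. Gamt, the last enzyme of creatine synthesis, fell by 0.55 and 0.80 (0.00351 and 0.000214) and Pycr1, which makes proline, by 1.14 and 1.25 (0.000877 and 0.000334), while a second probe of Pycr1 was not called. With normexp the calls of Oat and Gamt at 6 h were lost (-0.50 and -0.49, adjusted P 0.0769 and 0.169). The first probe of Pycr1 was also lower at 1 h, by 0.86 (0.0221), a call lost without 0 h replicate 2 or 1 h replicate 1 or 3 (0.0796 to 0.0927), with normexp (0.162) and with the 6 arrays of the contrast alone (0.0566). Prodh, which breaks proline down, was higher at 9 h on dimmer probes.

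**Figure D4:**
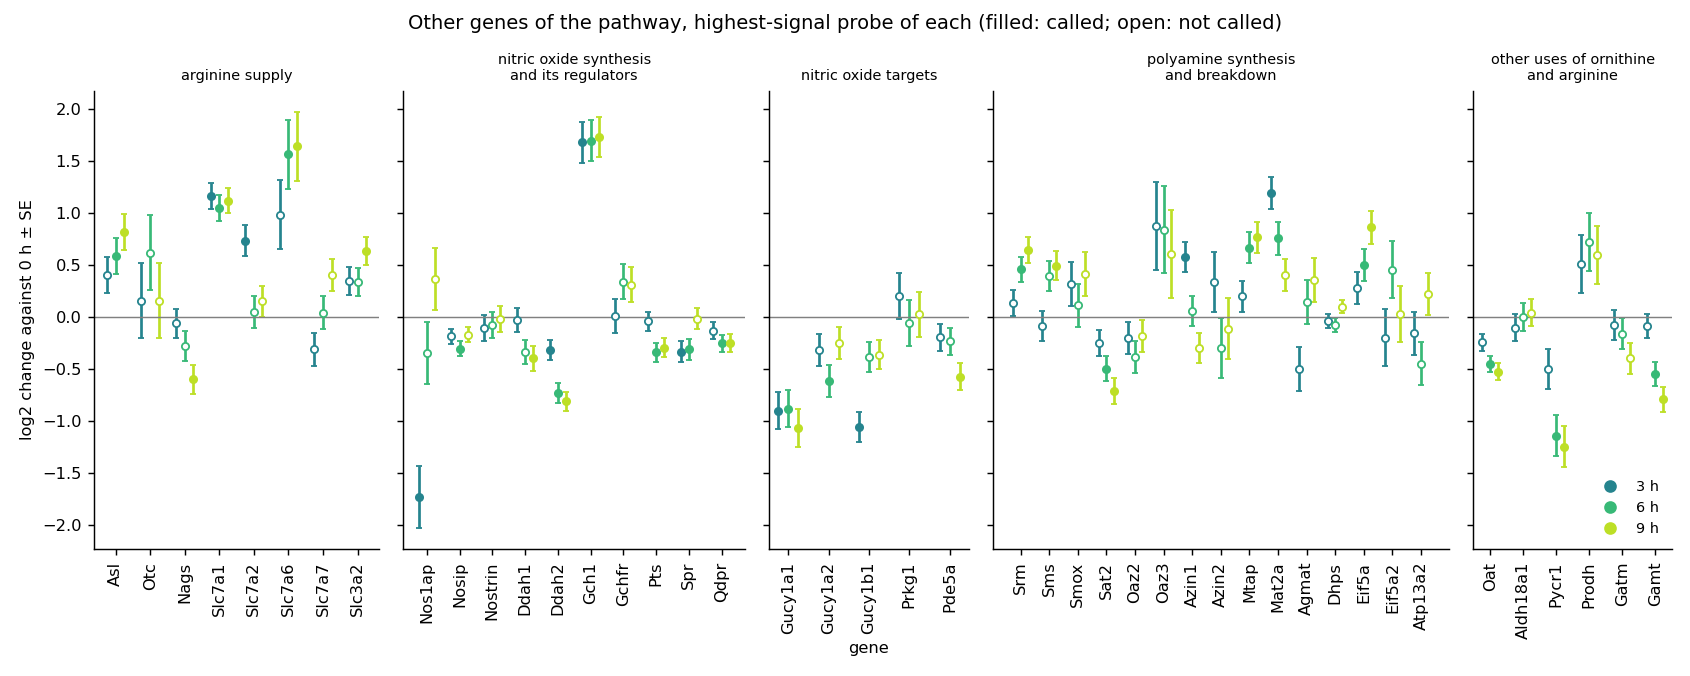
The log2 change against 0 h with its standard error at 3, 6 and 9 h (colours) is shown for the brightest tested probe of each of the 44 other genes, in 5 panels by list, filled where called. Slc7a1 and Gch1 stand above 0 at all 3 time-points, and Gucy1a1 and Ddah2 below.

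Neutrophil markers rose over the same hours. Of 9 neutrophil markers 2, 2, 7, 7 and 8 were higher at 0.5, 1, 3, 6 and 9 h and none lower. Their summed signal on single arrays was at most 3.25 at 0 h, 4.37 to 6.16 at 1 h, 9.96 to 24.1 at 3 h, 16.7 to 24.6 at 6 h and 20.4 to 24.2 at 9 h. Elane, the neutrophil elastase, was not above background on any array of 0 h, and Mpo, the myeloperoxidase, was above background and not called. Of 8 macrophage markers 2, 3 and 3 were higher and 0, 1 and 1 lower at 3, 6 and 9 h, and their sum was 25.6 to 27.8 at 0 h, 18.9 to 23.6 at 1 h and 37.2 to 49.4 at 9 h. Cd14, a receptor for bacterial lipid, was 2.15 higher at 9 h, and Adgre1, which encodes the F4/80 antigen, was 0.91 lower. The part of these cells in the higher levels of Nos2, Ass1 and Gch1 was not tested. Of 11 Schwann cell markers 1, 1 and 0 were higher and 0, 3 and 4 lower at 3, 6 and 9 h, with a sum of 862.9 to 1023 at 0 h and 681.0 to 777.1 at 9 h.

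**Figure D5:**
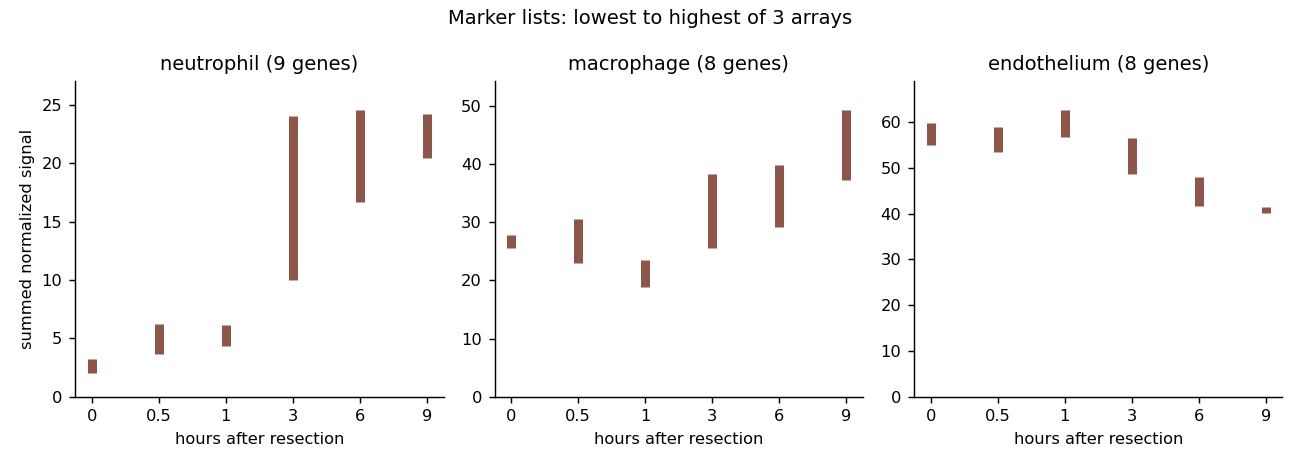
The summed normalized signal (75th percentile of the array set to 1) of the neutrophil, macrophage and endothelium markers is plotted against hours after resection, each bar running from the lowest to the highest of 3 arrays. The neutrophil sum is at most 6.20 up to 1 h and at least 9.96 from 3 h on, while the endothelium sum is lowest at 9 h.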

How the data were processed

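Proximal sciatic nerve RNA of 6 time-points was measured on 18 Agilent arrays of 1 colour. The authors deposited the scanner output, whose processed signal is a linear intensity with background and spatial trends removed (Feature Extraction 10.5.1.1 per the file headers), and a log2 matrix with identical distributions across the arrays, used as an alternative. The deposited flags for control, outlier, saturated and dim spots were used as given.

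Control and outlier spots were left out, the processed signal was put on a log2 scale, with the 75th percentile of each array subtracted, and spots of a probe were averaged. Testing was limited to probes that the scanner called well above background in every array of 1 time-point or more (32111 probes under 27199 gene names). Of 41012 probes, 16327 were named through their accession in RefSeq for rat, 3741 through a listed symbol and 1098 through an older symbol, and 19846 kept the name in the files. Levels are those of a gene's first probe, the brightest on average of those tested, and a gene was called if any probe was. The fit was limma's lmFit and eBayes with 1 mean for each time-point, an F-test and all pairwise contrasts, on all tested probes (prior degrees of freedom 1.9, residual 12), with a call at P under 0.01 and Benjamini-Hochberg adjusted P under 0.05. Bounds set each dim array at the higher of its own signal and the lowest signal well above background there.

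Some genes of this pathway are not reported here. The 7 genes described were named with every probe. In each pathway list every gene called in the F-test was named, with values for at most 4 of smallest P-value, besides the genes most like a member and probes that disagree. Members, lists and alternatives were chosen with earlier results of these data known. In a simulation of 6 h against 0 h, with 200 of 31912 probes altered, 77% of 4-fold and 56% of 2-fold changes were called and 3 calls were false. Its noise was drawn separately for each probe, with no effect of slide or scan day. A smaller share was altered than was called at 6 h in the data (26.4% of gene names), so its rates need not hold there. Precision is limited by how many arrays there are and how bright a probe is. R 4.3.3, limma 3.58.1, data.table (1.17.8), Python 3.11.15, pandas 2.3.3, numpy 2.4.6 and matplotlib 3.10.9 were used.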

Additional observations from a re-analysis of the deposited data

How the results depend on the processing

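Of 56 changes of named genes called against 0 h, 29 kept their direction and call under every alternative, among them those of Nos3, Slc7a1 and Gch1 at 3, 6 and 9 h, and 1 changed sign. This was Nos1ap at 3 h with normexp (0.80). Of 27 changes not called, 8 changed sign under some alternative. With a shift to the median the change was -0.15 (0.5 h), -0.065 (3 h) and -0.13 (9 h) for the first probe of Amd1, -0.011 for its second at 9 h, -0.054 for Ass1 at 0.5 h, -0.030 for Oaz1 at 3 h, and -0.13 and -0.15 for the probes of Odc1 at 1 h. With array weights it was -0.034 (3 h) and -0.0022 (9 h) for Amd1, and -0.025 and -0.056 for Odc1 at 1 h. With normexp it was -0.20 for Amd1 and -0.30 for Oaz1 at 3 h, and -0.10 and -0.15 for Odc1 at 1 h, and in the deposited matrix -0.42 for Oaz1 at 3 h. Leaving out 1 array gave -0.065 to 0.061 (0.5 h), -0.066 to 0.081 (3 h) and -0.013 to 0.079 (9 h) for Amd1, -0.063 to 0.13 for Oaz1 at 3 h, and -0.016 to 0.059 and -0.063 to 0.045 for Odc1 at 1 h.

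Counts of members called moved as follows. Asking also for a 2-fold change gave 2 at 3 h, 3 at 6 h, 3 at 9 h, 3 over all time-points, 2 on the second scan day and 1 neighbouring pair. Normexp gave 1 at 3 h, 3 at 6 h, 3 at 9 h, 1 on the second scan day and 1 pair. Array weights gave 1 at 0.5 h, 2 at 1 h and 9 pairs, and a trend together with a robust prior 5 pairs. At 0.5 h the 6 arrays of the contrast alone gave 1 and a shift to the median 2. At 1 h the matrix, quantile normalization and a shift to the median gave 1 each. Leaving out 1 array gave 0 to 1 at 0.5 h and at 1 h, 3 to 5 at 3 h, and 2 to 5 pairs. Of the other pathway genes, 2 were called at 0.5 h and 3 at 1 h as reported. The count was 0 at 0.5 h with a 2-fold limit, normexp, quantile normalization, the matrix or 6 arrays, and 1 with no filter or first probes alone. It was 4 with a block for the 1 array of the third scan day, which does not separate the other days. It was 5 with array weights, and 0 to 4 without 1 array. At 1 h it was 1 with a 2-fold limit or first probes, 5 with array weights, 0 with normexp, and 1 to 6 without 1 array. At 3, 6 and 9 h and over all time-points it was 5, 5, 6 and 9 with a 2-fold limit and 6, 6, 13 and 11 with normexp. The cause was not tested. The median change of all genes was 0.30 at 1 h and 0.44 at 3 h with normexp, and -0.16 to -0.09 with a shift to the median. Replicate numbers were not used to pair the arrays in the main fit. The correlation of deviations ran from -0.26 to 0.56 for the same number (median 0.070) and from -0.52 to 0.38 for others (median 0.0067). These ranges overlap and do not settle whether the numbers pair the arrays. With the replicate block 1 member and 5 pathway genes were called at 1 h, and 6 neighbouring pairs were called.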
